A study of Homo sapiens with 28 samples.

Results

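RAD21 and SMC3 are subunits of the same complex, cohesin, and the peaks of both that were called after siRNA against RAD21 were set against each other. The members were all peaks of the lists for RAD21 and for SMC3 in GP5d cells treated with RAD21 siRNA (siRAD21). There were 19752 RAD21 peaks and 12548 SMC3 peaks, 32300 in all, of the 393268 peaks in the 22 lists of the series. They were chosen by target and siRNA alone, and no peak was left out for its values. A peak was shared when it overlapped a peak of the other list by at least 1 bp. Overlapping peaks were merged into regions, which gave 21996 regions in 3 classes: 10218 shared (46.5%, 95% interval 45.8 to 47.1), 9485 with RAD21 only (43.1%, 42.5 to 43.8) and 2293 with SMC3 only (10.4%, 10.0 to 10.8).

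GP5d is an established human colon adenocarcinoma line. In the siRAD21 group the cells received 50 nM of siRNA against RAD21, and in the control group 50 nM of a neutral siRNA. Both groups were transfected with the same lipid reagent and harvested after 72 hours. Chromatin immunoprecipitation with sequencing (ChIP-seq) was done once for each of 11 targets under each siRNA, with immunoglobulin G (IgG) libraries as background. There was thus 1 library per target and siRNA, no test between libraries was possible, and the intervals given cover counting error only, over peaks that are not replicates of a culture. The groups were taken from titles and descriptions, since a separate siRNA entry in the labels gives both cohesin libraries a RAD name with another number.

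Cohesin is a ring-shaped complex that embraces DNA, keeps sister chromatids paired and draws chromatin into loops. SMC3 is 1 of its long coiled-coil arms with an ATPase head, and RAD21 is the kleisin that bridges the heads and closes the ring. NIPBL is the loader that stimulates the ATPase. CTCF binds DNA through zinc fingers, and moving cohesin is held at its sites. A ring without its kleisin is open, so RAD21 and SMC3 are usually mapped to the same places. Most such places in the genome also carry CTCF, and others lie at active enhancers and promoters.

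The lists were alike in depth and background. The siRAD21 RAD21 library held 9052392 tags after repeated positions were removed and the SMC3 library 9103494, and the authors called both against the same siRAD21 rabbit IgG library of 4101535 tags. Under control siRNA these targets had 14724408 and 17138940 tags and 36204 and 38799 peaks. MACS, the peak caller, gave each peak a tag count, a fold enrichment over the local background and a significance on the −10 × log10 p scale, called strength below. The cutoff was a p of 1e-05, a strength of 50. At an FDR under 5% the lists kept 12347 RAD21 peaks and 3829 SMC3 peaks. That limit fell at a strength of 84.5 in the RAD21 list and 115 in the SMC3 list. The median RAD21 peak was 1219 bp wide with 29 tags, a strength of 107 and 12.7-fold enrichment. The median SMC3 peak was 1260 bp wide with 25 tags, a strength of 84.4 and 10.1-fold enrichment. The strongest RAD21 peak reached 2038 and the strongest SMC3 peak 1011.

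Most remaining SMC3 peaks lay where RAD21 also remained, while many RAD21 peaks had no SMC3 peak. Of the RAD21 peaks, 52.0% (51.3 to 52.7, n = 19752) overlapped an SMC3 peak, and of the SMC3 peaks 81.7% (81.0 to 82.4, n = 12548) overlapped a RAD21 peak. Under control siRNA the shares were 87.2% (86.8 to 87.5) of the RAD21 peaks and 81.6% (81.2 to 81.9) of the SMC3 peaks. With an FDR under 5% in both lists, 29.5% of the RAD21 and 94.8% of the SMC3 peaks were shared after siRAD21. With the 12548 strongest peaks taken from each list, where equal numbers make the shares nearly equal by construction, they were 69.5% and 69.6% after siRAD21 and 86.9% and 86.9% under control siRNA. That number is the whole siRAD21 SMC3 list but only the strongest part of the longer control lists, so the siRNAs are not compared at like strength. Peaks without a partner were rarely near misses. A peak of the other list lay within 1000 bp of 195 of the 9485 RAD21-only peaks (2.06%) and of 94 of the 2293 SMC3-only peaks (4.10%). The nearest summit of the other list was at a median of 55.7 kb from a RAD21-only summit and 32.6 kb from an SMC3-only summit.

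Sharing followed the strength of the peak in both lists. Of RAD21 peaks of strength 50 to 100, 25.8% were shared (24.9 to 26.7, n = 9232). The share was 61.3% from 100 to 200 (n = 5870), 89.7% from 200 to 400 (n = 3308) and 98.5% at 400 and above (n = 1342). Of SMC3 peaks of strength 50 to 100, 71.9% were shared (70.9 to 72.9, n = 7694), and 96.5% from 100 to 200 (n = 3637), 99.4% from 200 to 400 (n = 1077) and 100% of the 140 at 400 and above. At each strength below 400 the SMC3 peak was thus more often shared than the RAD21 peak, and the intervals did not overlap. Strength was read from a different library for each subunit, so a like strength need not mean like peaks. An FDR under 5% began at a strength of 84.5 for RAD21 and 115 for SMC3. The lists also differed in length, with 19752 RAD21 and 12548 SMC3 peaks, so an SMC3 peak had more possible partners. The gap in shares therefore does not compare the subunits at like peaks. The strongest RAD21 peaks without SMC3 numbered 20 at a strength of 400 and above. SMC3 peaks without RAD21 numbered 7 at 200 and above, and none reached 400.

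**Figure D1:**
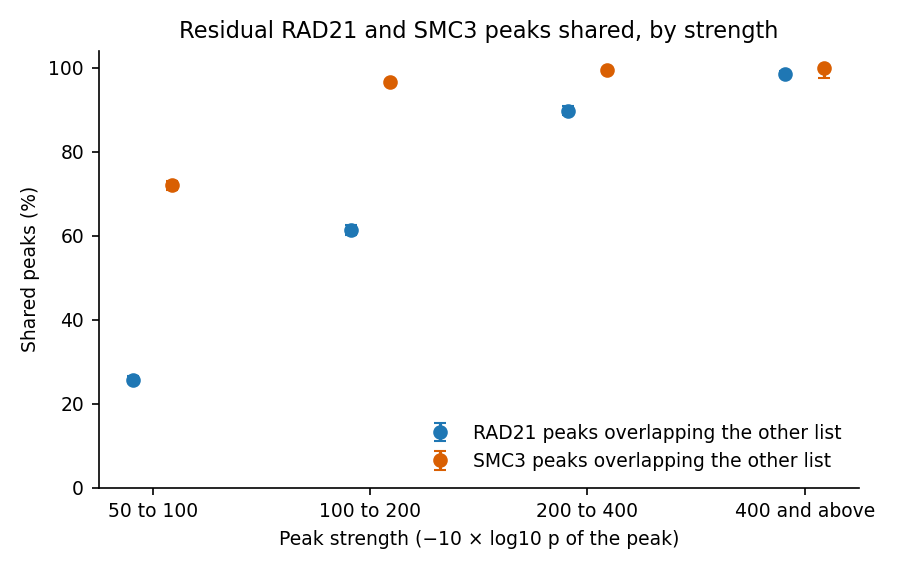
The share of peaks that overlap the other list after siRAD21 is plotted in percent for RAD21 peaks (blue) and SMC3 peaks (orange) in 4 classes of peak strength, with 95% Clopper-Pearson intervals as bars. RAD21 points climb from 25.8% to 98.5%, and SMC3 points lie higher in each class below 400, from 71.9% to 99.4%.

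Shared peaks were larger than unshared ones by every measure of the peak. In the RAD21 list shared peaks had a median of 38 tags (quartiles 26 and 56) and RAD21-only peaks 22 (17 and 32), a ratio of 1.73. The median strength was 171 for shared and 74.0 for RAD21-only peaks, the fold enrichment 17.0 and 9.90, and the width 1308 and 1116 bp. For tags per 1000 bp of peak the ratio of the medians was 1.45, so the difference was not one of width alone. In the SMC3 list shared peaks had a median of 27 tags (20 and 38) and SMC3-only peaks 17 (14 and 24), a ratio of 1.59. The median strength was 94.4 for shared and 59.7 for SMC3-only peaks, and the width 1295 and 1070 bp. An FDR under 5% was met by 84.2% of shared and 39.0% of RAD21-only peaks in the RAD21 list. In the SMC3 list it was met by 36.7% of shared and 2.66% of SMC3-only peaks, which is 61 of the SMC3-only peaks. A class without a partner says that no peak of the other subunit reached the cutoff, and tags below it are not in the lists.

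Where both subunits remained, their summits lay close together. Nearly all shared regions (10143 of 10218, 99.3%) held 1 RAD21 and 1 SMC3 peak. Each of the 10267 shared RAD21 peaks was paired with the SMC3 peak whose summit was nearest. The absolute distance between summits had a median of 53 bp (quartiles 23 and 108), and 95.4% of the pairs lay within 250 bp. The signed distance, RAD21 minus SMC3 along the chromosome, had a median of 0 (quartiles −53 and 54), with no side favoured. The shorter peak of a pair was covered over a median of 99.9% of its length. The distance was a median of 52 bp at pairs with a CTCF peak (n = 9519) and 81 bp at pairs without (n = 748). It was 72 bp where the RAD21 peak had a strength of 50 to 100, 54 bp from 100 to 200, 46 bp from 200 to 400 and 41 bp at 400 and above, so that stronger pairs coincided more closely. Under control siRNA, with more tags per peak, it was 28 bp (12 and 62, n = 31562).

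At sites with 1 CTCF peak the RAD21 summit lay a median of 50 bp from the CTCF summit and the SMC3 summit 62 bp (n = 9485). RAD21 was the nearer of the pair at 56.2% (55.2 to 57.2) of these sites and SMC3 at 42.8% (41.8 to 43.8). Both summits lay on the same side of the CTCF summit at 69.3% (68.4 to 70.3) of the sites where neither was at distance 0. Both sides were read from the same CTCF summit, whose own scatter raises this share. No reference value was computed, so a joint shift of the subunits was not tested. A RAD21-only summit lay a median of 61 bp from the CTCF summit (n = 6355) and an SMC3-only summit 98 bp (n = 929).

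Pairs were ranked by the weaker of their 2 peaks, and of the 5 strongest by this rule 4 are given here and the fifth below with the crowded regions. On chromosome 19 from 46901702 to 46904155 (hg18, as all positions here), RAD21 had 228 tags after siRAD21 and 488 under control siRNA. SMC3 had 172 tags there after siRAD21 and 648 under control siRNA, and the siRAD21 summits of the subunits were 11 bp apart. CTCF, H3K4me1, JUND and REST peaks also overlapped the region after siRAD21. On chromosome 17 from 68762931 to 68764600, RAD21 had 167 tags after siRAD21 and 485 under control siRNA, and SMC3 had 104 and 490. The siRAD21 summits were 39 bp apart, and CTCF was the only other target. On chromosome 1 from 199488671 to 199491583, RAD21 had 177 tags after siRAD21 and 466 under control siRNA, SMC3 had 109 and 616, and the siRAD21 summits were 24 bp apart. On chromosome 17 from 23005230 to 23006829, RAD21 had 112 tags after siRAD21 and 384 under control siRNA, SMC3 had 94 and 492, and the siRAD21 summits were 96 bp apart. All 4 regions carried a CTCF peak under both siRNAs, and in each the fewer tags of each subunit were in the siRAD21 library, which also had fewer tags in all.

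Within pairs RAD21 had more tags than SMC3. The RAD21 peak held a median of 1.38 times the tags of its SMC3 partner (quartiles 1.08 and 1.74), and RAD21 was the higher in 80.0% of the pairs (79.2 to 80.8). Widths were alike, with a median ratio of 1.01. Tags of the pair went together across sites (Spearman rho 0.731 over 10267 pairs, and 0.647 for tags per 1000 bp), where both values share the site, its mappability and the IgG library. The ratio of RAD21 to SMC3 tags was a median of 1.00 where the RAD21 peak had a strength of 50 to 100, 1.35 from 100 to 200, 1.61 from 200 to 400 and 1.82 at 400 and above. Part of that order is built in, because strength was read from the RAD21 tags. Pairs without CTCF had a ratio of 1.13, against 1.38 over all pairs. From a strength of 100 to 200 the ratio was 1.35 with CTCF (n = 3352) and 1.38 without (n = 247), and from 50 to 100 it was 1.00 and 1.00 (n = 1949 and 429). The gap between pairs with and without CTCF was not seen among peaks of like RAD21 strength up to 200. From 50 to 100 the RAD21 peak was near the cutoff and the SMC3 peak had to pass it too. That limits how far the ratio can differ there.

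**Figure D2:**
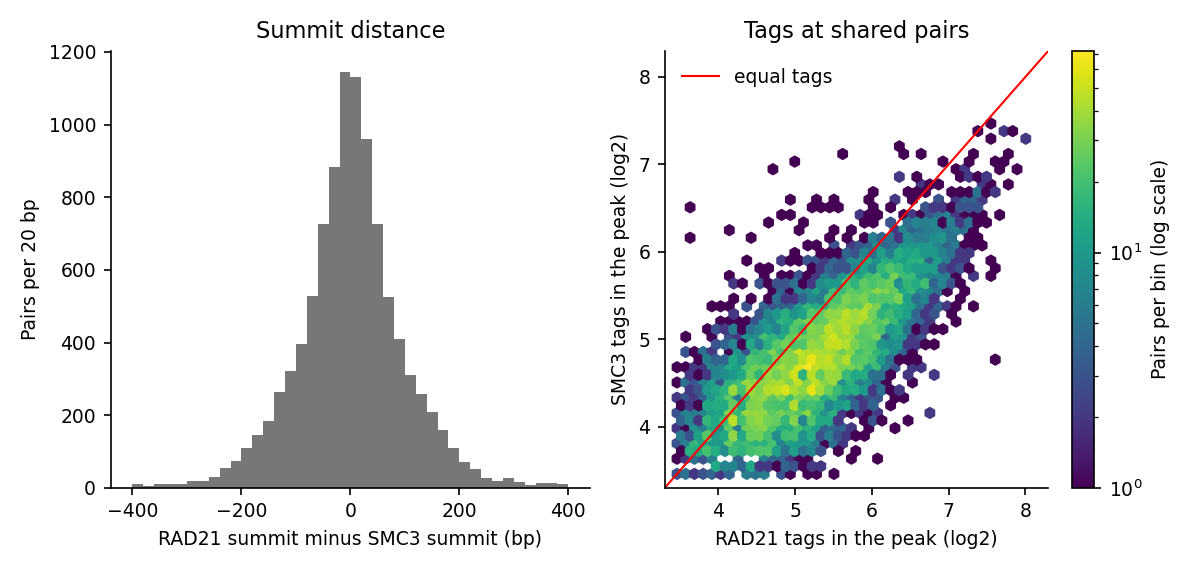
Left, the signed distance between the RAD21 and SMC3 summits of shared pairs after siRAD21, in bp, counted in steps of 20 bp. Right, log2 of the RAD21 tags against log2 of the SMC3 tags of the same pairs, coloured by pairs per bin, with equal tags on the red line. Distances centre on 0, and most pairs (80.0%) lie below the line, with more RAD21 than SMC3 tags.

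The excess of RAD21 over SMC3 was larger after siRAD21 than under control siRNA at the same sites. Tags were scaled to the filtered tags of each library for this. At 9703 pairs with a control pair at the same place, the ratio of RAD21 to SMC3 scaled tags had a median of 1.41 after siRAD21 and 1.07 under control siRNA. The siRAD21 ratio exceeded the control ratio at 76.8% (75.9 to 77.6) of these sites, with a median quotient of 1.31 (quartiles 1.02 and 1.66). The quotient was 1.32 at sites with CTCF (n = 9163) and 1.12 without (n = 540). Pairs without CTCF were also weaker, since the RAD21 peak had a strength under 100 in 1949 of 9519 pairs with CTCF and in 429 of 748 without. Taken by subunit, scaled RAD21 tags after siRAD21 were a median of 0.484 of the control value at shared sites (quartiles 0.395 and 0.586, n = 9690). Scaled SMC3 tags were 0.370 of the control value there (0.299 and 0.454, n = 9756). These quotients are from 1 immunoprecipitation each. A scaling by total tags does not correct for the share of tags that falls in peaks, so the level of both quotients depends on it. At shared sites RAD21 had the higher quotient. The quotient was 0.504 for RAD21 in RAD21-only regions (n = 6994) and 0.509 for SMC3 in SMC3-only regions (n = 1106). Those values are from different sites, each kept because that subunit alone passed the siRAD21 cutoff, so they do not compare the subunits.

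CTCF separated the 3 classes most. A CTCF peak of the siRAD21 library overlapped 92.8% of shared regions (92.3 to 93.3), 67.2% of RAD21-only regions (66.3 to 68.2) and 40.8% of SMC3-only regions (38.8 to 42.8), and 76.3% of all regions. The CTCF list was called against goat IgG and both cohesin lists against rabbit IgG, so CTCF does not share their background library. Shared exceeded RAD21-only regions by 25.6 percentage points (24.5 to 26.7), and RAD21-only exceeded SMC3-only regions by 26.4 (24.2 to 28.7). Since shared peaks were stronger, the differences were also averaged within 5 strata of peak strength. Between the unshared classes this was RAD21 strength for RAD21-only and SMC3 strength for SMC3-only regions. Those are from different libraries, so a like stratum need not mean like peaks. The differences were then 12.9 (11.7 to 14.2) and 17.9 points (15.6 to 20.2). They were smaller again at 9.40 and 10.1 points with an FDR under 5% in both lists, and 7.65 and 9.02 points with a strength of at least 100. Both filters were applied before the classes were drawn, so membership of the classes changed. At an FDR under 5%, 199 SMC3 peaks then counted as SMC3-only, against 61 of the main SMC3-only class that met this limit. With the main classes kept, CTCF at a strength of 50 to 100 was found at 60.4% of RAD21-only regions (59.2 to 61.5, n = 6854) and 39.8% of SMC3-only regions (37.7 to 41.9, n = 2159). At 100 to 200 it was found at 84.5% (83.0 to 86.0, n = 2271) and 59.1% (50.0 to 67.7, n = 127). The CTCF peaks themselves were strongest at shared regions, with a median strength of 262. They had 166 at RAD21-only regions, 142 at SMC3-only regions and 95.6 where neither subunit was called. In all, 52.0% of the 32196 siRAD21 CTCF peaks overlapped a cohesin region of any class.

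Of the 8 other targets, 6 ran in the opposite order, lowest at shared and highest at SMC3-only regions. H3K4me1, a histone mark of enhancers and promoter flanks, overlapped 29.9% of shared (29.0 to 30.8), 35.1% of RAD21-only (34.2 to 36.1) and 44.3% of SMC3-only regions (42.3 to 46.4). The catalogue number listed for its antibody is generally known to belong to a reagent against histone H3 in any form, so the mark is named here as the titles give it. NIPBL overlapped 6.02%, 9.64% and 13.3% of the classes in that order. JUND, an AP-1 factor, was at 11.3%, 15.8% and 24.9%. MYC, a growth regulator that binds E-boxes, was at 7.57%, 11.1% and 16.3%, though the number listed for its antibody is known for a mouse reagent and the title names rabbit. HNF4A, a nuclear receptor of gut and liver epithelium, was at 5.14%, 7.03% and 10.8%, and KLF5, a zinc finger factor of proliferating gut epithelium, at 1.32%, 2.08% and 3.49%. REST, a repressor of neuronal genes, differed little, at 1.61%, 1.80% and 1.74%, and RFX2, a factor of ciliary genes, was at 0.568%, 0.843% and 0.741% with overlapping intervals. For H3K4me1, NIPBL, JUND, MYC, HNF4A and KLF5 the intervals of the 3 classes did not overlap. All but RFX2 of these lists were called against the same rabbit IgG library as RAD21 and SMC3, and the part of that common background was not tested.

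Within 5 strata of strength RAD21-only regions remained below SMC3-only regions for these targets. As for CTCF, that strength was of the RAD21 peak in one class and of the SMC3 peak in the other. The difference was −8.53 percentage points for H3K4me1 (−10.8 to −6.21) and −8.61 for JUND (−10.6 to −6.63). It was −5.16 for MYC (−6.86 to −3.45), −4.17 for NIPBL (−5.75 to −2.60) and −3.36 for HNF4A (−4.79 to −1.92). Shared against RAD21-only regions gave smaller differences, of −6.04 for H3K4me1 (−7.60 to −4.49), −2.59 for NIPBL (−3.55 to −1.63) and −2.26 for JUND (−3.42 to −1.09). For HNF4A the difference of −0.318 had an interval that held 0 (−1.13 to 0.496). Shared regions are unions of peaks and were wider, with a median of 1471 bp against 1116 bp. Within 5 strata of width the same differences were larger, at −15.8 for H3K4me1 (−17.3 to −14.3) and −10.1 for JUND (−11.2 to −8.90). They were −8.03 for NIPBL (−8.98 to −7.08) and −4.40 for HNF4A (−5.23 to −3.57), so the size of these gaps depends on the strata. H3K4me1 peaks were broad, with a median width of 3731 bp at SMC3-only regions, and overlap alone says little of where the mark lay. An H3K4me1 summit was within 250 bp of the cohesin summit at 6.16% of shared, 7.74% of RAD21-only and 10.3% of SMC3-only regions, in the same order.

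**Figure D3:**
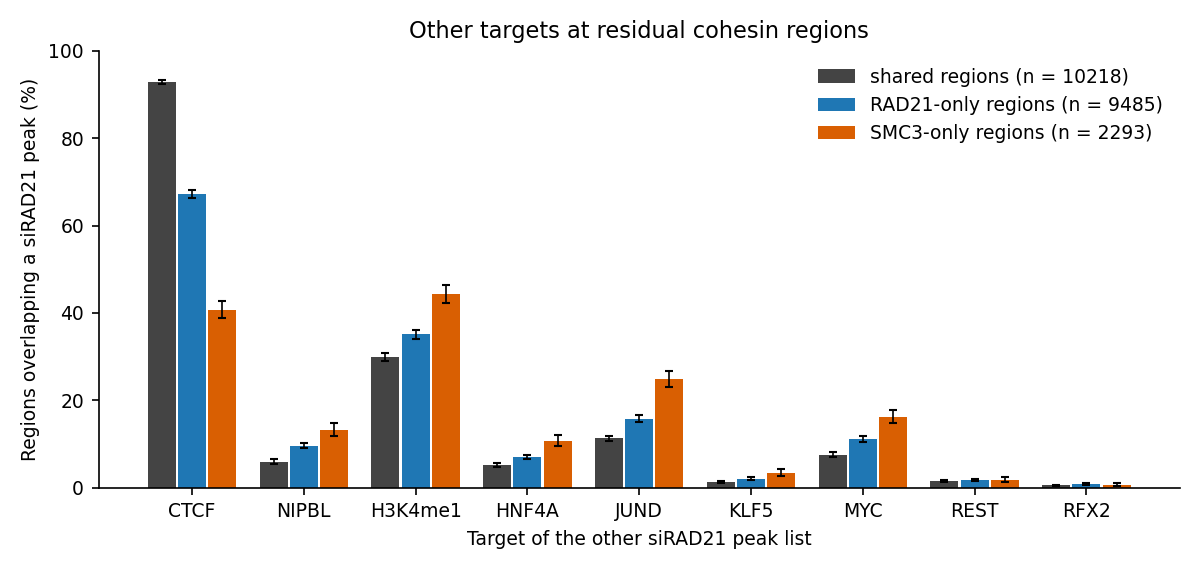
Bars give the percent of regions that overlap a siRAD21 peak of each of the 9 other targets, for shared (grey), RAD21-only (blue) and SMC3-only regions (orange), with 95% Clopper-Pearson intervals. CTCF descends across the classes (92.8%, 67.2% and 40.8%), while H3K4me1, NIPBL, JUND, MYC, HNF4A and KLF5 ascend.

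Much of that order went with the presence or absence of CTCF. Regions without a siRAD21 CTCF peak numbered 736 shared, 3110 RAD21-only and 1358 SMC3-only. A control CTCF peak overlapped 72.8%, 44.0% and 21.1% of them, so the classes in this subset are not alike in make-up. Among these regions JUND was at 29.5%, 27.5% and 29.7%. NIPBL was at 20.9% of shared, 18.5% of RAD21-only and 15.9% of SMC3-only regions, MYC at 24.0%, 19.0% and 18.6%, and HNF4A at 16.6%, 12.4% and 12.3%. In this subset none of these 4 was lowest at shared regions in the plain shares. Within strata of strength, shared minus SMC3-only regions gave −4.63 points for JUND (−8.96 to −0.293). It gave 1.60 for NIPBL (−2.19 to 5.40), 1.22 for MYC (−2.75 to 5.19) and 1.47 for HNF4A (−1.94 to 4.87). Shared minus RAD21-only regions gave 1.18 for JUND (−2.78 to 5.14) and −1.32 for NIPBL (−4.93 to 2.29). H3K4me1 was at 42.0%, 48.9% and 50.6%, and here shared regions stayed below the others. Among regions with a CTCF peak (9482 shared, 6375 RAD21-only and 935 SMC3-only), SMC3-only regions stood above both other classes. JUND was at 9.89%, 10.1% and 17.8%, and H3K4me1 at 28.9%, 28.4% and 35.2%. MYC was at 6.29%, 7.33% and 12.8%, NIPBL at 4.86%, 5.32% and 9.52%, and HNF4A at 4.25%, 4.41% and 8.66%. Shared minus RAD21-only regions with CTCF gave −1.04 points for MYC (−1.84 to −0.235), and −0.819 within strata of strength (−1.75 to 0.115). For H3K4me1 the difference was 0.531 (−0.904 to 1.97), and −3.37 within strata of strength (−5.01 to −1.73). Between RAD21-only and SMC3-only regions with CTCF the difference within strata of strength was −7.28 points for JUND (−9.91 to −4.65) and −4.50 for NIPBL (−6.52 to −2.48). Without CTCF it was −4.41 for JUND (−7.31 to −1.51) and −0.0242 for NIPBL (−2.40 to 2.35).

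**Figure D4:**
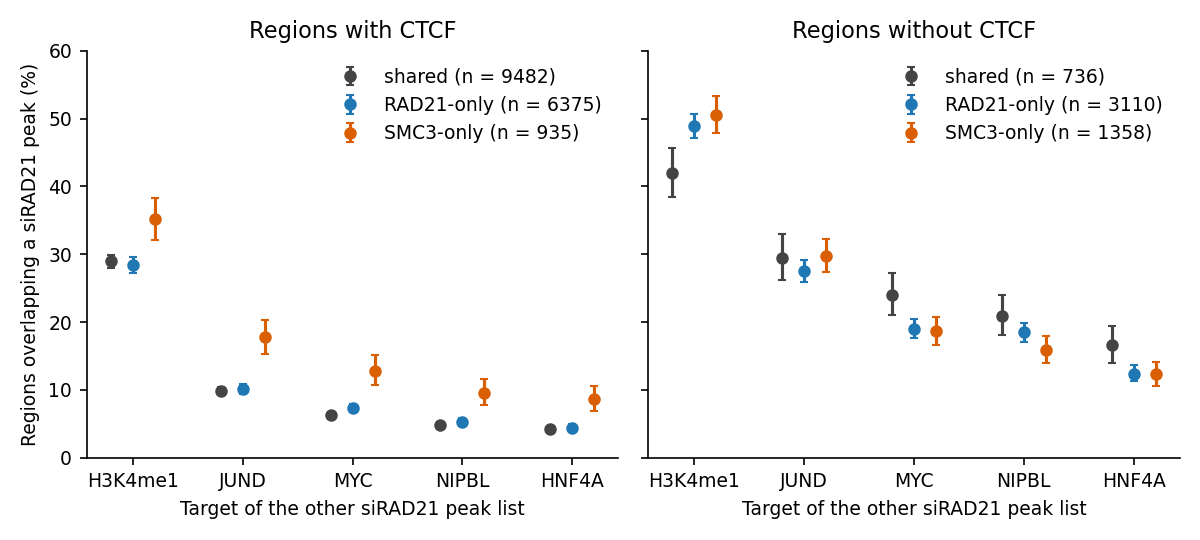
The percent of regions that overlap a siRAD21 peak of H3K4me1, JUND, MYC, NIPBL or HNF4A is shown for regions with a CTCF peak (left) and without one (right), by class, with 95% Clopper-Pearson intervals. On the left SMC3-only regions lie above the other classes, as for JUND (17.8% against 9.89% and 10.1%). On the right all levels are higher, and SMC3-only regions no longer stand above both other classes for MYC, NIPBL and HNF4A.

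The combinations of targets differed in the same way. CTCF with no other target made up 61.9% of shared (61.0 to 62.9), 46.3% of RAD21-only (45.3 to 47.3) and 25.1% of SMC3-only regions (23.3 to 26.9). Regions where no other target was called made up 4.03%, 15.6% and 27.0%. At least 1 of the 6 factors other than CTCF overlapped 16.6%, 21.3% and 31.7%, and at least 2 of them 7.08%, 11.9% and 17.7%. SMC3-only regions thus held both the highest share with nothing else and the highest share with several factors. Crowded regions, with 8 or more of the 11 targets, were few: 177 shared, 37 RAD21-only and 13 SMC3-only. Sharing is itself 2 of the 11 targets, which favours the shared class in that count. The most targets at a region after siRAD21 was 10, found at 6 shared regions, of which the first 3 by strength are given. On chromosome 1 from 45541089 to 45543186 RAD21 had 70 tags and SMC3 36, with summits 1 bp apart, and on chromosome 2 from 11189555 to 11191397 RAD21 had 145 and SMC3 100, with summits 3 bp apart. On chromosome 1 from 6187165 to 6189023 RAD21 had 36 tags and SMC3 22, but the summits were 907 bp apart.

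Shared peaks without CTCF were uncommon and lay mostly at sites of cohesin under control siRNA, with control peaks of both subunits at 73.4% (70.0 to 76.5). The strongest, on chromosome 2 from 235679466 to 235681306, had no siRAD21 peak of any other target. RAD21 had 74 tags there after siRAD21 and 226 under control siRNA, and SMC3 had 61 and 285. The second, on chromosome X from 17617411 to 17619140, also carried the cohesin subunits alone after siRAD21, with 56 RAD21 and 54 SMC3 tags. At both a CTCF peak was called under control siRNA, with 165 and 149 tags. The siRAD21 CTCF library held 4163512 tags after filtering and the control CTCF library 12025319. Across all 736 shared regions without CTCF, a control CTCF peak overlapped 72.8% (69.5 to 76.0).

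The classes differed in what stood there under control siRNA. Control peaks of both RAD21 and SMC3 overlapped 96.0% of shared (95.6 to 96.4), 72.1% of RAD21-only (71.1 to 73.0) and 42.6% of SMC3-only regions (40.5 to 44.6). Neither was called under control siRNA at 2.57%, 20.8% and 47.6%. A control RAD21 peak without SMC3 was found at 3.17% of RAD21-only regions (2.83 to 3.55) and 1.85% of all regions. A control SMC3 peak without RAD21 was found at 7.76% of SMC3-only regions (6.70 to 8.93) and 2.91% of all regions. Control CTCF overlapped 96.4% of shared, 76.8% of RAD21-only and 48.7% of SMC3-only regions. Where a siRAD21 CTCF peak was called, both control subunits were found at 97.8%, 87.2% and 75.8% of the classes. Where none was called, they were found at 73.4%, 41.0% and 19.7%. Regions with no CTCF and no control peak of RAD21, SMC3 or CTCF made up 1.23% of shared, 14.0% of RAD21-only and 38.4% of SMC3-only regions.

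**Figure D5:**
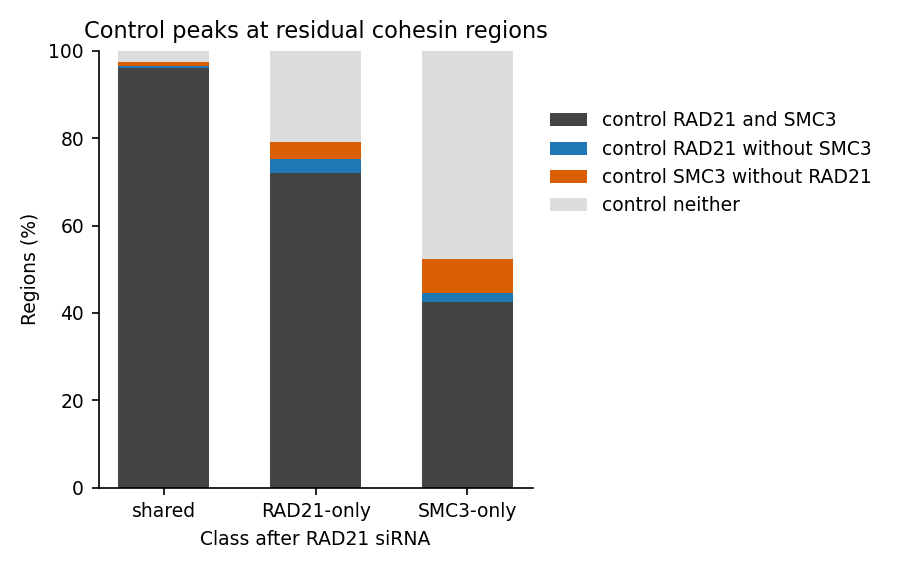
Stacked bars give the percent of shared, RAD21-only and SMC3-only regions that overlapped control peaks of both subunits (dark), of RAD21 without SMC3 (blue), of SMC3 without RAD21 (orange) or of neither (light). Both subunits make up 96.0%, 72.1% and 42.6%, and neither makes up 2.57%, 20.8% and 47.6%.

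Control strength ordered the classes too. Control RAD21 peaks had a median strength of 652 where both subunits remained, 316 where RAD21 alone remained, 205 where SMC3 alone remained and 98.7 where neither did. For control SMC3 peaks the medians were 650, 292, 208 and 96.0. Neither subunit remained at 50.6% of control RAD21 peaks and 53.3% of control SMC3 peaks. The control ratio of RAD21 to SMC3 tags was a median of 0.922 where both remained, 0.969 where RAD21 alone did, 0.878 where SMC3 alone did and 0.920 where neither did. These tags were not scaled, and the control SMC3 library was the deeper, with 17138940 filtered tags against 14724408. The ratios therefore do not say which subunit was the higher. Against the 0.922 where both remained, the ratio was higher where RAD21 alone remained and lower where SMC3 alone did. That shift was small beside the quartiles of 0.833 and 1.13 for RAD21-only and 0.755 and 1.04 for SMC3-only regions.

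The strongest RAD21 peaks without SMC3 more often carried NIPBL than the rest of their class. NIPBL overlapped 10 of the 20 with a strength of 400 and above (50.0%, 27.2 to 72.8), against 9.12% (6.28 to 12.7) of the 340 from 200 to 400. CTCF overlapped 11 of the 20 (55.0%, 31.5 to 76.9), below the 90.3% (86.6 to 93.2) of the 340 but not apart from the 67.2% of the whole class. The strongest of all lay on chromosome 17 from 70021515 to 70023213, with 233 RAD21 tags after siRAD21 and 498 under control siRNA. NIPBL alone was called with it, under both siRNAs, and neither SMC3 nor CTCF was called under either. On chromosome 5 from 137700727 to 137702446 RAD21 had 234 tags after siRAD21 and no control peak, and NIPBL was again the other siRAD21 target. On chromosome 17 from 17080033 to 17082329 RAD21 had 114 tags with NIPBL, H3K4me1, JUND and MYC after siRAD21, and no control RAD21 peak. On chromosome 3 from 171422374 to 171423035 it had 98 tags with the same 4 targets and KLF5. Of the 5 strongest, CTCF was called at 1, on chromosome 3 from 170868380 to 170870479, where RAD21 had 101 tags after siRAD21 and 180 under control siRNA. The strongest RAD21-only peak with no other target, on chromosome 2 from 235073267 to 235074901, had 63 tags after siRAD21 and 259 under control siRNA. Control SMC3 and control CTCF peaks, with 284 and 136 tags, were called at that region.

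The strongest SMC3 peaks without RAD21 were broad and weaker. The first, on chromosome 7 from 26184388 to 26187231, was 2844 bp wide with 57 tags and a strength of 259, and no other target was called there after siRAD21. On chromosome 9 from 96891687 to 96895633 SMC3 had 83 tags over 3947 bp with H3K4me1, HNF4A, JUND, KLF5 and MYC. On chromosome 6 from 26264278 to 26266195 it had 72 tags with NIPBL, H3K4me1, JUND and MYC, and on chromosome 12 from 51629130 to 51634249 it had 133 tags over 5120 bp with NIPBL, H3K4me1, HNF4A, JUND and MYC. The fifth, on chromosome 8 from 11739398 to 11744446, had 105 tags over 5049 bp with CTCF, H3K4me1 and JUND. H3K4me1 and JUND were thus called at 4 of these 5 regions and CTCF at 1. Under control siRNA SMC3 had 172 tags at the chromosome 9 region, 249 on chromosome 12 and 314 on chromosome 8. A control RAD21 peak, with 85 tags, was called at the chromosome 9 region only. At the regions on chromosomes 7 and 6 no control peak of either subunit was called. Fold enrichment was 10.1 to 35.4 in the 5 RAD21-only regions and 6.20 to 14.2 in these 5 SMC3-only regions.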

How the data were processed

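The 22 deposited peak lists were used as the authors made them. The submitters' processing notes name CASAVA 1.4, BWA, MACS 1.4 and the hg18 build. Per the file headers, peaks were called in each library on its own, with a p cutoff of 1e-05 and a band width of 300 bp, and RAD21 and SMC3 were called against the rabbit IgG of the same siRNA. Each deposited peak has a count of tags, a significance score of −10 × log10 p, a ratio (fold enrichment) and, in an unnamed column, an FDR in percent. These values are the authors' and describe peaks within a list; tags scaled to the filtered tags of a library were computed here. The files hold 10 columns under 9 names.

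Overlaps, distances and shares were computed with Python 3.11.15, numpy 2.4.6, pandas 2.3.3 and scipy 1.17.1, and the overlap and strata steps were tested on simulated data. Shares carry 95% Clopper-Pearson intervals and differences 95% normal intervals. The 5 strata are quantile classes of strength or width with Mantel-Haenszel weights. For RAD21-only against SMC3-only regions, strength is that of the class's own peak, RAD21 or SMC3. The members, comparisons and lists were chosen with earlier results of these data known. Named regions were, per class, the 5 strongest, the 2 strongest without CTCF and the strongest with no other target. Shared regions were ranked by the weaker of their 2 peaks. The 5 strongest of an unshared class had no peak of the other subunit within 1000 bp. The 3 regions with most targets were taken from the shared class only. No genome or annotation of hg18 was used, so no sequence and no gene is given. IgG peaks were not analysed here.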

Additional observations from a re-analysis of the deposited data

How the results depend on the processing

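Each of 8 values was recomputed under up to 9 of 12 other settings, 55 in all. None of the tag ratios and differences of shares reversed. The shared shares and the summit distance have no direction that could reverse. The settings that kept the value within its interval numbered 25, and 30 moved it. An FDR under 5% gave shared shares of 29.5% (RAD21) and 94.8% (SMC3), a summit distance of 44 bp, tag ratios of 1.59 (RAD21) and 1.18 (SMC3), and CTCF differences of 9.40 (shared minus RAD21-only) and 10.1 (RAD21-only minus SMC3-only). A strength of at least 100 gave, in that order, 41.1%, 89.0%, 44 bp, 1.44, 1.28, 7.65 and 9.02. Equal numbers gave 69.5%, 69.6%, 50 bp, 1.35 for RAD21, a CTCF difference of 13.2 (shared minus RAD21-only) and an H3K4me1 difference of −5.98. These settings test fewer peaks and draw the classes anew from them. Summits within 250 bp gave shares of 49.6% and 78.1% and a CTCF difference of 21.1 (RAD21-only minus SMC3-only), and peaks within 1000 bp shares of 53.0% and 82.5%. Tags per 1000 bp gave ratios of 1.45 and 1.30. Strata of p gave CTCF differences of 12.9 and 17.9, and strata of width 18.2 (shared minus RAD21-only). No paired analysis was possible because each target has 1 library per siRNA, and no library could be left out. The part on sequence and genes was not run, for want of an hg18 genome. Depth limits the classes, since a peak missing from 1 list may lie just under its cutoff.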

Other observations

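The classes varied over the chromosomes, which were not part of the comparisons above. The ratio of RAD21 to SMC3 peaks ran from 1.45 on chromosome 17 and 1.46 on chromosome 11 to 1.74 on chromosome 13 and 1.75 on chromosome 18. RAD21 peaks were shared least on chromosome 13, at 43.9% (39.1 to 48.8), and most on chromosome 11, at 56.8% (53.8 to 59.8). SMC3-only regions made up 6.99% of the regions on chromosome 14 and 7.42% on chromosome 18, against 12.6% on chromosome 19, 13.3% on chromosome 17 and 14.4% on chromosome 21. RAD21 peaks outnumbered SMC3 peaks on all 23 chromosomes analysed.

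Seen from the other lists, RAD21-only regions held more peaks of NIPBL (15.2% of 6068), MYC (14.6% of 7264), JUND (12.1% of 12319), KLF5 (11.2% of 1781) and HNF4A (9.36% of 7082) than shared regions did, at 10.4%, 10.8%, 9.47%, 7.69% and 7.44%. For CTCF shared regions held 29.5% of 32196 peaks and RAD21-only regions 19.8%. The NIPBL peaks at cohesin regions were stronger than those away from them, with a median strength of 85.5 at shared, 95.8 at RAD21-only and 81.5 at SMC3-only regions, and 68.0 elsewhere.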
